A study of Mus musculus with 161 samples.

Results

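The immunity-related GTPases (IRGs) are interferon-inducible proteins of the macrophage, and 6 of them are described here: *Irgm1*, *Irgm2*, *Igtp*, *Iigp1*, *Tgtp1* and *Tgtp2*. The genes were taken by name. All 6 were among the 8307 genes of the bulk RNA-seq matrix and among the 27998 genes of the single-cell matrices, and 88 of 150203 ATAC-seq sites lay within 50 kb of 1 of their annotated start sites. *Irgm1*, *Irgm2*, *Igtp*, *Tgtp1* and *Tgtp2* lie on mouse chromosome 11, *Irgm2* beside *Igtp* and *Tgtp1* beside *Tgtp2*, while *Iigp1* lies on another chromosome.

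The cells were bone marrow-derived macrophages (BMDMs) grown from the femurs of wild-type C57BL/6J mice aged 6 to 10 weeks in medium with MCSF (macrophage colony-stimulating factor, 20 ng/mL), which all groups shared. From day 7 of culture they were given 100 ng/mL lipopolysaccharide (LPS) with 25 ng/mL interferon-γ (IFN-γ) for the M1 state, 25 ng/mL interleukin-4 (IL-4) for the M2 state, or base medium alone (M0). After 24 h of M1 or M2 stimulation some cultures were washed and moved to base medium (M1 → M0, M2 → M0) or to the opposing stimulus (M1 → M2, M2 → M1), with times counted from the wash, and others kept their first stimulus to 48 or 96 h. Bulk RNA-seq covered 48 conditions in 145 libraries (3 per condition, but 2 for 48 h M0 and 4 each for 96 h M0 and 4 h M2 → M1), ATAC-seq covered 24 h M1, 72 h M1 → M0 and 0 h M0 with 3 libraries each, and 1 single-cell RNA-seq library was made for each of 7 conditions (M1 and M2 at 6 and 24 h, M0 at 0, 6 and 24 h). The libraries of a condition are called biological replicates, but whether each came from its own mouse is not given in the sources used here, so the spread between them may be in part technical.

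IRGs are large GTPases that mouse cells make in response to interferon and that act on the membranes of vacuoles holding intracellular parasites and bacteria. They fall into 2 groups. *Iigp1* (Irga6) and *Tgtp1* and *Tgtp2* (Irgb6) encode effectors that coat and break open such vacuoles, and *Irgm1*, *Irgm2* and *Igtp* (Irgm3) encode regulators that sit on the cell's own membranes and keep the effectors inactive there. IFN-γ signals through the JAK kinases, and promoters that respond to it often carry a GAS element. One of the genes it turns on, *Irf1*, encodes a factor that binds the interferon-stimulated response element (ISRE).

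Of the 5 promoters matched, 4 carry both elements side by side. RefSeq promoter windows (build GRCm38.p6, reaching from 250 bases before to 50 bases after a gene's start) were matched for 5 of the 6 genes, and 70 bases of each are shown, 5′ to 3′ on the gene's own strand, to let the shared elements be compared. The windows are aligned on the ISRE, and capitals mark every match to GAAA, any 2 bases, GAAA (ISRE) and to TTCNNNGAA (GAS).
Irgm1: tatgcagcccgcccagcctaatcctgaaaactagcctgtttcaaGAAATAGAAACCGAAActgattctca
Irgm2: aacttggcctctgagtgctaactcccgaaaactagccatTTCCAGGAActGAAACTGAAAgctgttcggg
Igtp: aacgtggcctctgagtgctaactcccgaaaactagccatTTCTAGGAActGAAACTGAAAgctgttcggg
Tgtp1: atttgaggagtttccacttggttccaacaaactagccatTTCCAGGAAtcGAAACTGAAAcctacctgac
Tgtp2: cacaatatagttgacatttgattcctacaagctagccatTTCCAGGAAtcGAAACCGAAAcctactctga
They lie at chr11:48871425-48871494 (*Irgm1*, minus strand), chr11:58214863-58214932 (*Irgm2*, plus strand), chr11:58199472-58199541 (*Igtp*, plus strand), chr11:48992304-48992373 (*Tgtp1*, minus strand) and chr11:49064263-49064332 (*Tgtp2*, minus strand).

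All 5 promoters held an ISRE match, against 3.44% of the 32851 promoters in the table, with both strands searched. Counted from the start site, its first base was at -30 in *Irgm1* (where another match begins at -24 and overlaps it), -64 in *Irgm2*, -34 in *Igtp*, -77 in *Tgtp1* and -70 in *Tgtp2*. A GAS match stood next to it in *Irgm2*, *Igtp*, *Tgtp1* and *Tgtp2*, with 2 bases between the elements in each, against 8.30% of all promoters with a GAS match and 0.454% with both. *Irgm1* had instead the shorter TTCNNGAA, from -35 to -28 and overlapping its ISRE, a pattern that 8.52% of promoters held. The run ctagccatttc, which ends in the first bases of the GAS, was shared by *Irgm2*, *Igtp*, *Tgtp1* and *Tgtp2* and stood in 6 promoters of the table. These matches describe the sequence alone and do not show a bound factor.

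Bulk values were FPKM (fragments per kilobase of transcript, scaled to the mapped fragments of the library), and library sums over the matrix lay between 354027 and 710082. Every gene of the matrix reached 10 FPKM in at least 1 library, and among M0 libraries only *Irgm1* reached that level, so the other 5 genes are in the matrix through stimulated cultures, and a difference between M1 and M0 follows in part from that. *Cd68* and *Csf1r*, a pair taken from the listed macrophage markers after their values were seen, were expressed in both states, *Cd68* at 820.3 ± 216 FPKM in 24 h M1 and 1155 ± 87.9 FPKM in 0 h M0, and *Csf1r* at 217 ± 10.7 FPKM in 24 h M1 and 504 ± 39.8 FPKM in 0 h M0. Both were called lower in M1, but other listed markers were called higher, such as *Fcgr1* at 531 ± 46.4 FPKM in M1 and 36.7 ± 4.41 FPKM in M0 and *Mertk* at 57.5 ± 14.4 FPKM in M1 and 20.9 ± 1.67 FPKM in M0. The 9 neutrophil markers measured of 10 listed summed to 20.7 to 40.0 FPKM in 24 h M1 and 976 to 2716 FPKM in 0 h M0 libraries, and *Ighm*, the 1 B cell marker measured of 4 listed, stood at 0.714 ± 0.39 FPKM in 24 h M1 and 81.2 ± 12.4 FPKM in 0 h M0 (-5.60 ± 0.27, ranked 8304 of 8307 genes). The part of such cells in the M1 results was not tested. Replicate 1 stood apart in the fibroblast gene *Col1a1*, lowest there in 47 of 48 conditions, but its mean deviation for the 6 IRG genes lay between -0.09 and 0.08 on the log2 scale. It was the lowest library for *Irgm1* in 29 conditions and the highest for *Irgm2* in 25 and for *Tgtp1* in 24, and it was the high library at 1 h of M1. In bulk samples fewer cells of a type and less RNA per cell cannot be told apart. *Tgtp1* and *Tgtp2* are near copies: 79.4% of the 50-base words of *Tgtp1* transcripts also occur in *Tgtp2* transcripts and 85.8% the other way round, so the split of reads between them is uncertain. *Irgm2* and *Igtp* share 6.79% and 11.8% of their words, and their annotated transcripts overlap.

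All 6 genes were among the strongly induced genes of M1 macrophages. At 24 h all 6 were higher in M1 than in 0 h M0 (limma, adjusted p below 0.05 over all genes), against 35.9% of all 8307 genes, and their median difference on the log2(FPKM + 1) scale was 5.83, against 0.10 over all genes. Among the regulators, *Irgm1* stood at 572, 586 and 647 FPKM in the 24 h M1 libraries and at 18.3, 16.8 and 19.7 FPKM in the 0 h M0 libraries. *Irgm2* stood at 209, 144 and 161 FPKM in M1 and at 5.66, 3.57 and 3.79 FPKM in M0. *Igtp* stood at 497, 466 and 498 FPKM in M1 and at 5.85, 6.07 and 7.29 FPKM in M0. The regulators were therefore readable in resting cells, and their M1 and M0 libraries did not overlap.

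The effectors started close to 0. *Iigp1*, the best studied vacuole-coating IRG, stood at 664, 505 and 660 FPKM in 24 h M1 libraries and at 0.347, 0.223 and 0.0982 FPKM in 0 h M0 libraries. *Tgtp2* stood at 205, 208 and 221 FPKM in M1 and at 0.167, 0.0635 and 0.779 FPKM in M0. *Tgtp1* stood at 55.6, 47.7 and 44.1 FPKM in M1 and at 0.0139, 0.00741 and 0.0221 FPKM in M0. Every M1 library was above every M0 library for each of them. On the log2(FPKM + 1) scale, which understates the change of genes this low, the differences were 8.96 ± 0.41 for *Iigp1* (SE, limma adjusted p = 9.1e-38), 7.35 ± 0.38 for *Tgtp2* (1.13e-33), 6.05 ± 0.29 for *Igtp* (6.42e-37), 5.62 ± 0.24 for *Tgtp1* (5.24e-40), 5.01 ± 0.34 for *Irgm2* (1.55e-25) and 4.97 ± 0.26 for *Irgm1* (1.01e-33). *Iigp1* ranked 6 and *Tgtp2* ranked 22 of 8307 genes by this difference. Set against M0 cultured for the same 24 h, all 6 genes were again higher in M1 (35.4% of all genes were), by 4.58 (*Irgm2*) to 8.83 (*Iigp1*), where the neutrophil marker sum was 20.7 to 40.0 FPKM in M1 and 21.8 to 314 FPKM in M0. The *Ighm* difference was -5.50 there, with 0.714 FPKM in M1 and 76.2 FPKM in M0 on average. Their part in the difference was not tested.

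**Figure D1:**
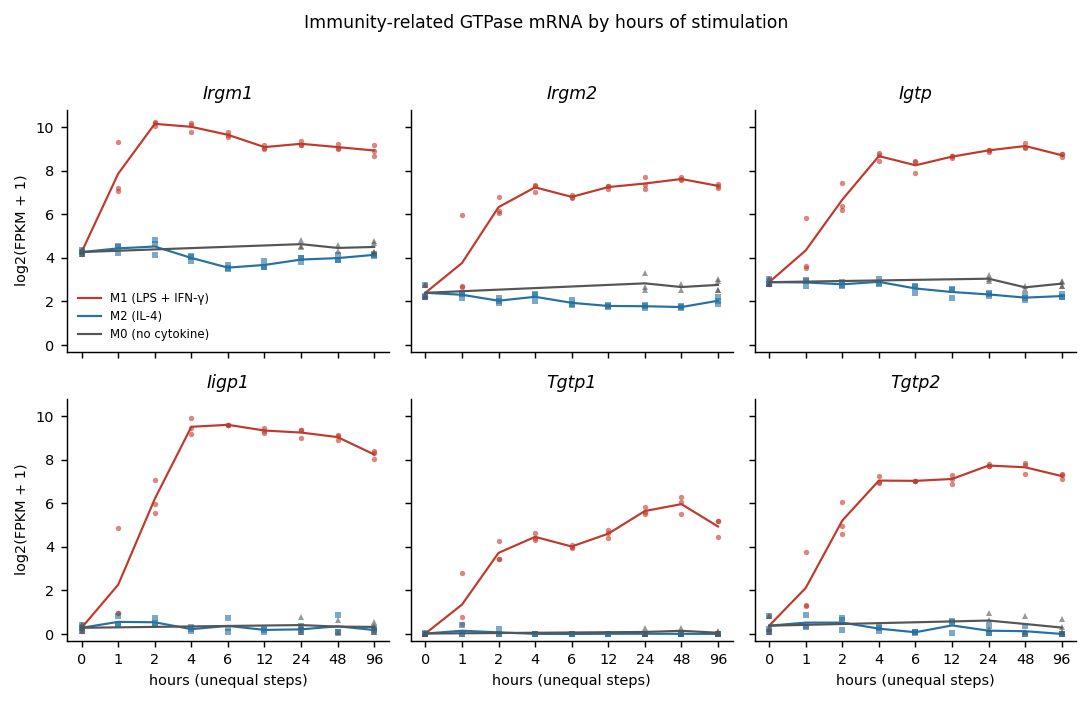
Level of each IRG gene, as log2(FPKM + 1), against hours (unequal steps) of M1, M2 or M0 culture, with every library as a point and a line through the mean log2 values. The M1 libraries leave the M0 and M2 libraries from 1 to 2 h on, *Irgm1* is highest at 2 h (mean 1136 FPKM) and *Iigp1* at 6 h (mean 774 FPKM), while *Tgtp1* is highest at 48 h (mean 62.8 FPKM).

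The genes differed in when they peaked. *Irgm1* came first: its mean was 1136 ± 77.2 FPKM at 2 h of M1 stimulation, 801 ± 63.9 FPKM at 6 h, 602 ± 39.7 FPKM at 24 h and 490.4 ± 88.9 FPKM at 96 h (SD, n = 3). *Iigp1* was later and steeper, at 62.1 FPKM in its middle library at 2 h, at 951, 585 and 690 FPKM at 4 h and at 774, 775 and 772 FPKM at 6 h. *Igtp* had a mean of 109 ± 53.6 FPKM at 2 h, 307 ± 61.3 FPKM at 6 h, 487 ± 18.4 FPKM at 24 h and 561 ± 41.8 FPKM at 48 h. *Irgm2* and *Tgtp2* followed that slower form and were highest at 48 h (195 ± 9.07 FPKM) and 24 h (211 ± 8.30 FPKM). All 6 genes were higher than in 0 h M0 at every later time too, against 24.0% of all genes at 2 h, 35.3% at 4 h and 38.4% at 6 h, and against 37.1% at 12 h, 36.2% at 48 h and then 31.6% at 96 h. These comparisons share the 3 libraries of 0 h M0 and are not independent of each other.

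Steps between neighbouring times, added after the data were seen, showed the same order. Between 1 h and 2 h all 6 genes rose (18.5% of all genes did), by 2.29 (*Irgm1*) to 3.94 (*Iigp1*) on the log2(FPKM + 1) scale. Between 2 h and 4 h, 5 of 6 rose (27.1% of all genes), *Iigp1* by 3.31 ± 0.41, *Igtp* by 2.00 ± 0.29 and *Tgtp2* by 1.83 ± 0.38, while the *Irgm1* difference was -0.14 ± 0.26 (limma adjusted p = 0.71). Without replicate 2 or without replicate 3, 3 genes rose in that step. Between 4 h and 6 h no member was called by limma, and none at an unadjusted p below 0.05 (14.2% of all genes were called higher and 9.69% lower).

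*Tgtp1* was the member called in steps after 6 h. It had 24.2, 18.9 and 20.1 FPKM in its 4 h libraries, near its level at 12 h. At 6 h it stood at 15.1, 14.6 and 15.8 FPKM, and at 12 h it stood at 26.2, 20.4 and 23.6 FPKM. At 24 h it had reached 55.6, 47.7 and 44.1 FPKM, and at 48 h the libraries held 77.7, 66.1 and 44.6 FPKM. At 96 h they were back to 35.0, 34.8 and 21.1 FPKM. It was the sole member called between 6 h and 12 h (0.59 ± 0.24, limma adjusted p = 0.037, with 22.1% of all genes higher), between 12 h and 24 h (1.04 ± 0.24, 0.00024, with 19.6% higher) and between 48 h and 96 h, where it fell (-1.03 ± 0.24, 0.0025, with 4.55% of all genes lower). The first and the last of these steps were not called without replicate 2 or without replicate 3, and 3 genes were called in each without replicate 1. Over all genes the last step had 579 calls as reported and 1451 without replicate 1. With the replicate number as a block, *Irgm1* was also called between 6 h and 12 h, lower at 12 h (-0.56, limma adjusted p = 0.0499). Between 24 h and 48 h no member was called by limma, and none at an unadjusted p below 0.05 (12.6% of all genes were called higher and 14.5% lower). *Igtp*, *Irgm2* and *Tgtp2* also had their highest means at 24 or 48 h, and the timing of one gene against another was not tested.

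At 1 h the response differed widely between libraries. *Irgm1* had 627 FPKM in replicate 1 of 1 h M1 and 134 and 146 FPKM in replicates 2 and 3, all well above the 16.8 to 19.7 FPKM of 0 h M0. *Iigp1* had 28.2 FPKM in replicate 1 but 0.961 and 0.923 FPKM in the others, and *Irgm2* had 61.1 FPKM in replicate 1 but 5.45 and 5.23 FPKM in the others. Replicate 1 was thus the high library for each. All 6 genes were called higher than in 0 h M0, against 4.32% of all genes, with *Irgm1* (3.59 ± 0.26, limma adjusted p = 3.1e-22) far ahead of the rest (1.33 to 1.98). Without replicate 1 of both conditions, 3 genes were called, and *Iigp1* (0.74, adjusted p = 0.13), *Irgm2* (0.44, 0.29) and *Tgtp2* (0.84, 0.096) were not. With the spread taken from the 6 compared libraries alone, none of the 6 was called.

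IL-4 did not induce the family. *Irgm2* stood at 2.60, 2.45 and 2.26 FPKM in 24 h M2 libraries and at 8.95, 5.23 and 4.79 FPKM in 24 h M0 libraries. *Irgm1* stood at 13.0, 14.7 and 14.8 FPKM in M2 and at 27.3, 21.9 and 22.4 FPKM in M0, and *Igtp* stood at 3.79, 4.00 and 4.21 FPKM in M2 and at 8.14, 6.62 and 7.04 FPKM in M0. All 3 regulators were thus lower in M2 without overlap, with differences of -1.05 ± 0.34 (*Irgm2*, limma adjusted p = 0.011), -0.71 ± 0.26 (*Irgm1*, 0.025) and -0.72 ± 0.29 (*Igtp*, 0.040), a call that 15.1% of all genes had. No regulator was called without replicate 2 or without replicate 3. *Ighm* was also lower, at 15.4 ± 2.39 FPKM in M2 and 76.2 ± 13.3 FPKM in M0 (-2.23), *Pecam1*, an endothelial marker, was higher, at 8.11 ± 3.04 FPKM in M2 and 1.75 ± 0.556 FPKM in M0 (1.69), and the neutrophil markers summed to 17.0 to 306 FPKM in M2 and 21.8 to 314 FPKM in M0. Their part in the regulators' differences was not tested.

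The effectors were near 0 in both states, with *Iigp1* at 0.0699 to 0.293 FPKM in M2 and 0.0823 to 0.690 FPKM in M0, and none was called. Against 0 h M0 in place of 24 h M0, limma called none of the 6 genes at 24 h of M2 (14.2% of all genes were lower), none had an unadjusted p below 0.05, and the lowest adjusted p was 0.12 (*Igtp*). Without replicate 1, however, 2 genes were called lower there. In comparisons added after the data were seen, limma called no member at 1, 4, 12 or 96 h of M2 or at 24, 48 or 96 h of M0 against 0 h M0, and 1 gene had an unadjusted p below 0.05 at 12 h and 1 at 96 h of M2. Of all genes 1.1% were higher and 0.0602% lower at 1 h of M2, and 22.5% and 17.8% at 4 h. The shares were 20.8% and 17.4% at 12 h and 24.4% and 17.5% at 96 h of M2. In M0 they were 0.626% and 1.01% at 24 h, 4.32% and 4.37% at 48 h, and 6.75% and 6.9% at 96 h. At 12 h of M2 *Irgm1* was called lower with the replicate number as a block (-0.59, limma adjusted p = 0.045). Over all 48 conditions *Iigp1* and *Tgtp2* were below 1 FPKM in every library of 19 conditions and *Tgtp1* of 24, while *Irgm1*, *Irgm2* and *Igtp* had no such condition.

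Washing M1 macrophages into base medium brought the transcripts down within hours. At 1 h and 2 h after the wash limma called none of the 6 genes lower than in 24 h M1 (0.0482% of all genes were lower at 1 h and 0.722% at 2 h), with 0 and 2 genes at an unadjusted p below 0.05. At 4 h all 6 were lower (10.6% of all genes), and they were lower also at 6 h (17.1%), 12 h (20.5%) and 24 h (23.4%). These comparisons were added after the data were seen and share the 24 h M1 libraries.

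The rate differed between genes. *Iigp1* was quickest: it stood at 53.3, 91.9 and 102 FPKM 4 h after the wash, a mean of 13.5% of its 24 h M1 level, with a log2 difference of -2.91 ± 0.41 (limma adjusted p = 2.3e-08). *Irgm1* was slowest, at 281, 404 and 380 FPKM, or 59.0% of its 24 h M1 level (-0.77 ± 0.26, 0.022), and it was not called without replicate 2 or without replicate 3. *Tgtp1*, *Tgtp2*, *Irgm2* and *Igtp* lay between, at 22.1%, 22.3%, 28% and 36.3%. At 24 h after the wash 0.128% of the *Tgtp1* level was left, 1.72% of *Iigp1*, 2.76% of *Tgtp2*, 4.21% of *Igtp*, 8.58% of *Irgm2* and 9.70% of *Irgm1*. *Tgtp1* made up a mean of 18.9% of the sum of *Tgtp1* and *Tgtp2* in 24 h M1 and 1.10% of it 24 h after the wash. Its fall thus rests on the split of reads between these near copies. No test of one gene's rate against another's was run.

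Cells kept in M1 medium over the same hours gave the matched control. At 24 h after the wash all 6 genes were lower in M1 → M0 than in 48 h M1 (13.4% of all genes were), with differences of -3.32 (*Irgm1*) to -5.87 (*Tgtp1*) on the log2(FPKM + 1) scale, and at 72 h all 6 were lower than in 96 h M1 (22.8% of all genes), with differences of -2.99 (*Irgm1*) to -4.86 (*Tgtp1*). No M1 → M0 library reached the lowest M1 library for any of the genes at either time.

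**Figure D2:**
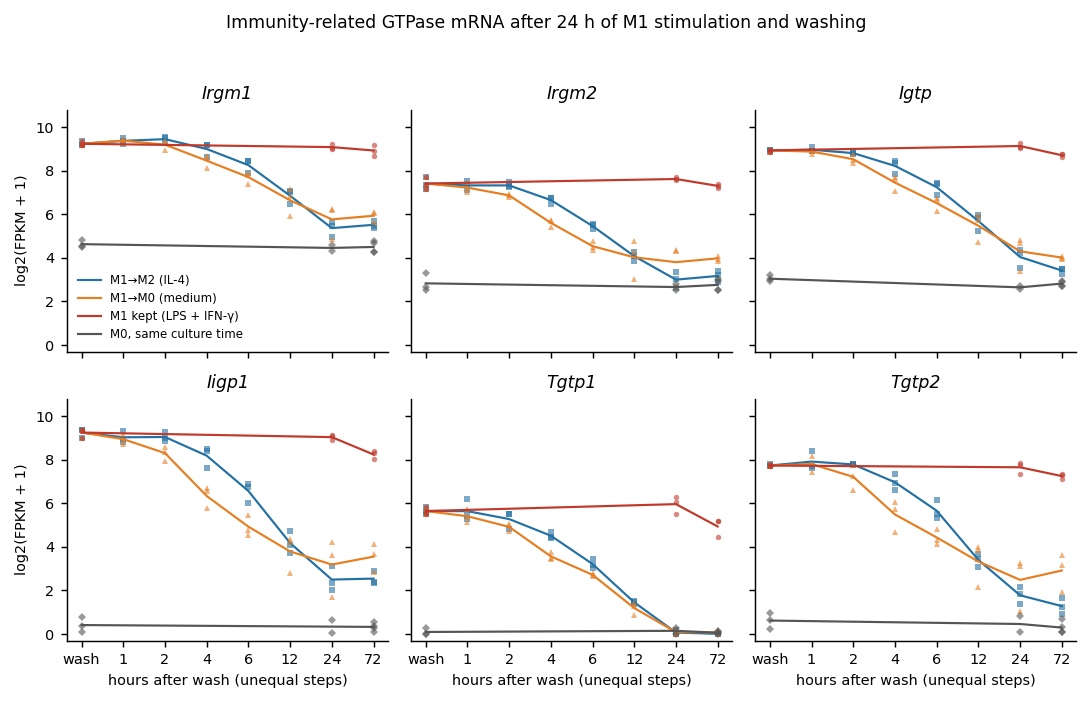
Level of each IRG gene, as log2(FPKM + 1), against hours after the wash (unequal steps) in M1 → M0 and M1 → M2 cells, with 24 h M1 at the wash and cultures kept in M1 or in M0 beside them, every library as a point with a line through the mean log2 values. The M1 → M0 points drop between 2 and 24 h and then level off above M0 for all genes but *Tgtp1*, and at 4 h the M1 → M2 points lie above the M1 → M0 points, with *Iigp1* at 49.1% against 13.5% of its 24 h M1 mean. The *Tgtp1* points rest on the split of reads between it and *Tgtp2*.

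The fall stopped short of the M0 level for 5 of the 6 genes. At 72 h after the wash *Iigp1* stood at 6.20, 11.6 and 16.7 FPKM in M1 → M0 libraries and at 0.294, 0.207, 0.460 and 0.0824 FPKM in 96 h M0 libraries, which had the same hours in culture. *Tgtp2* stood at 2.77, 8.07 and 11.5 FPKM in M1 → M0 and at 0.588, 0.236, 0.0805 and 0.0663 FPKM in M0. *Irgm1* stood at 49.5, 66.8 and 65.2 FPKM in M1 → M0 and at 24.3, 26.3, 18.5 and 18.4 FPKM in M0. The groups did not overlap for any of these genes, nor for *Irgm2* (13.7 to 16.0 against 4.74 to 7.21 FPKM) and *Igtp* (14.6 to 15.7 against 5.48 to 6.73 FPKM). All but *Tgtp1* were called higher, 5 of 6 genes against 10.7% of all genes.

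The differences were 3.22 ± 0.39 for *Iigp1* (limma adjusted p = 6.6e-11), 2.62 ± 0.36 for *Tgtp2* (5.6e-09), 1.43 ± 0.24 for *Irgm1* (1.7e-06), 1.22 ± 0.32 for *Irgm2* (0.0026) and 1.19 ± 0.27 for *Igtp* (0.00038), and *Iigp1* ranked 5 and *Tgtp2* ranked 12 of 8307 genes. *Tgtp1* was at 0.129, 0.0257 and 0.00934 FPKM in M1 → M0 and at 0.0942, 0.0494, 0 and 0.0220 FPKM in M0, a difference of 0.02 ± 0.23 (0.98). Without replicate 3, *Irgm2* (1.09, 0.16) and *Igtp* (1.13, 0.064) were no longer called. The fibroblast markers *Col1a1* and *Col1a2* also differed between these groups, summing to 0.296 to 0.941 FPKM in M1 → M0 and 18.2 to 128 FPKM in M0, and the neutrophil markers summed to 4.26 to 11.9 FPKM in M1 → M0 and 8.94 to 18.9 FPKM in M0. *Ighm* was the lowest of all 8307 genes by this difference, at 1.22 ± 0.347 FPKM in M1 → M0 and 68.1 ± 12.6 FPKM in M0 (-4.96 ± 0.25). The part of these cells in the residual levels was not tested. The levels at 72 h were close to those at 24 h after the wash, with *Iigp1* at 1.89% against 1.72% of its 24 h M1 level and *Irgm1* at 10.1% against 9.70%. In M2 → M0 cells at 72 h, limma called no member against 96 h M0 and none had an unadjusted p below 0.05. Few genes were called there at all, with 0.253% of all genes higher and 0.12% lower.

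Moving M1 cells into IL-4 in place of base medium left 4 of the genes higher at 4 h and 1, *Tgtp2*, lower at 72 h. At 4 h *Iigp1* stood at 198, 337 and 362 FPKM in M1 → M2 libraries and at 53.3, 91.9 and 102 FPKM in M1 → M0 libraries. *Tgtp2* stood at 95.7, 122 and 162 FPKM in M1 → M2 and at 24.6, 51.9 and 65.1 FPKM in M1 → M0, and *Tgtp1* stood at 20.2, 24.3 and 21 FPKM in M1 → M2 and at 10.1, 12.6 and 9.85 FPKM in M1 → M0. Every M1 → M2 library was above every M1 → M0 library for these effectors. The comparison, added after the data were seen, called 4 of 6 genes higher (5.10% of all genes): *Iigp1* by 1.85 ± 0.41 (limma adjusted p = 0.00064), *Tgtp2* by 1.48 ± 0.38 (0.0046), *Irgm2* by 1.05 ± 0.34 (0.040) and *Tgtp1* by 0.95 ± 0.24 (0.0042). *Igtp* (0.77, 0.098) and *Irgm1* (0.53, 0.30) were not called. At 6 h 2 genes were called (6.48% of all genes), *Iigp1* by 1.64 ± 0.41 and *Tgtp2* by 1.23 ± 0.38. Without replicate 2 no gene was called at either time, and without replicate 3, 1 gene was called at 4 h and none at 6 h. Limma called none at 1, 2 or 12 h, nor had any an unadjusted p below 0.05 there. Of all genes 0.0361% were higher at 1 h, 1.26% at 2 h and 7.16% at 12 h.

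By 24 h the sign had turned: all 6 differences between M1 → M2 and M1 → M0 lay between -0.80 and -0.02, limma called none (3.96% of all genes were lower), and 1 gene had an unadjusted p below 0.05. Without replicate 1, 5 genes were called lower, and the calls over all 8307 genes in either direction were 1437 (850 as reported). At 72 h *Tgtp2* stood at 1.37, 0.904 and 2.17 FPKM in M1 → M2 and at 2.77, 8.07 and 11.5 FPKM in M1 → M0, and it was the 1 gene called (-1.63 ± 0.38, limma adjusted p = 0.00057, with 8.45% of all genes lower). All 6 differences lay between -1.63 and -0.07, 4 genes had an unadjusted p below 0.05 and the libraries of 4 did not overlap. No such counts were made over all genes, so these have no share to be set against. No gene was called without replicate 2 or without replicate 3, and 5 were without replicate 1. IL-4 for 72 h did not bring the genes to the level of cells that had seen IL-4 alone: in M1 → M2 against 96 h M2, 5 of 6 were higher (11.8% of all genes were), *Iigp1* at 4.25, 4.05 and 6.45 FPKM in M1 → M2 and at 0.222, 0.126 and 0.0618 FPKM in M2. The difference was 2.36 ± 0.41 for *Iigp1*, 1.38 ± 0.26 for *Irgm1*, 1.28 ± 0.38 for *Tgtp2*, 1.17 ± 0.29 for *Igtp* and 1.14 ± 0.34 for *Irgm2*, while *Tgtp1* was near 0 in both groups. Without replicate 3, 2 of these 5 were called. *Ighm* was lower in M1 → M2, at 0.293 ± 0.129 FPKM against 14.7 ± 2.43 FPKM in 96 h M2 (-3.59 ± 0.27), while *Col1a1*, *Col1a2* and *Pecam1* were not called. The M1 → M2 cells had 72 h of IL-4 and the M2 cells 96 h. The part of other cells and of the hours in IL-4 in these differences was not tested.

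In M2 macrophages given LPS and IFN-γ, *Tgtp1* lagged behind naive M1 cells, and no other gene was called different. Up to 24 h the M2 → M1 cells had also been washed and were 24 h longer in culture (28 h against 4 h at the 4 h time). IL-4, the wash and time in culture cannot be told apart in these comparisons. At 4 h *Tgtp1* stood at 4.85, 4.40, 7.02 and 5.82 FPKM in M2 → M1 libraries and at 24.2, 18.9 and 20.1 FPKM in M1 libraries. At 6 h it stood at 2.63, 5.42 and 4.56 FPKM in M2 → M1 and at 15.1, 14.6 and 15.8 FPKM in M1, and at 12 h it stood at 4.36, 10.9 and 7.58 FPKM in M2 → M1 and at 26.2, 20.4 and 23.6 FPKM in M1. The groups did not overlap from 2 h to 12 h. By 24 h the libraries overlapped, with 34.1, 49.7 and 46.1 FPKM in M2 → M1 and 55.6, 47.7 and 44.1 FPKM in M1.

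*Tgtp1* was the sole member called lower in M2 → M1, at 1 h (-1.08 ± 0.24, limma adjusted p = 0.00017), 2 h (-1.70 ± 0.24, 9.8e-09), 4 h (-1.77 ± 0.23, 4.9e-10), 6 h (-1.67 ± 0.24, 4.0e-08) and 12 h (-1.57 ± 0.24, 2.0e-07). Of all genes 17.3% were called lower at 1 h, 14.6% at 2 h and 14% at 4 h, then 9.64% at 6 h and 9.39% at 12 h, and the 6 h and 12 h comparisons were added after the data were seen. The 1 h difference rests on replicate 1 of naive M1, with *Tgtp1* at 0.582, 0 and 0.113 FPKM in M2 → M1 and at 5.90, 0.387 and 0.725 FPKM in M1. Without replicate 1, *Iigp1* (0.83) and *Irgm2* (0.59) were called higher in M2 → M1 at 1 h, and 2 genes were called at 2 h and 3 at 4 h. At 24 h limma called no gene (11.5% of all genes were higher), with *Tgtp1* at -0.19 ± 0.24 (adjusted p = 0.65) and 1 gene, *Irgm2*, at an unadjusted p below 0.05. Without replicate 1, 3 were called there, and the calls over all 8307 genes were 2985 (1572 as reported). At 72 h it called none against 96 h M1 (7.32% of all genes were higher), and 1 gene, *Tgtp1*, had an unadjusted p below 0.05.

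**Figure D3:**
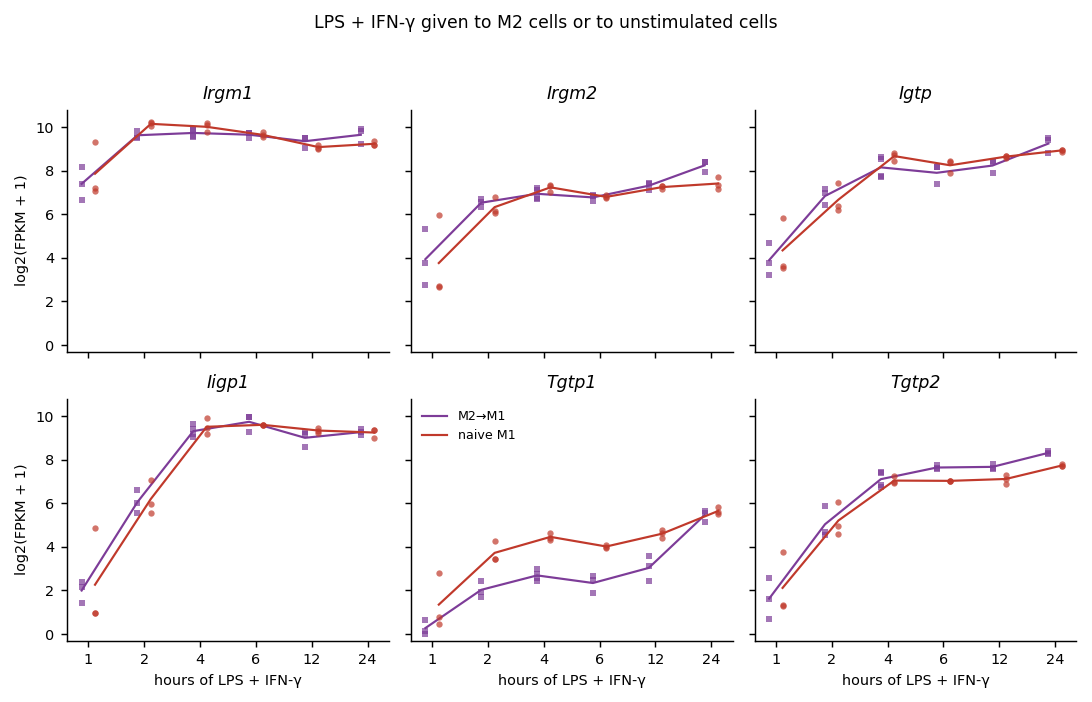
Level of each IRG gene, as log2(FPKM + 1), against hours (unequal steps) of LPS and IFN-γ in M2 → M1 cells and in naive M1 cells, every library as a point with a line through the mean log2 values. The *Tgtp1* points of M2 → M1 lie below those of M1 from 2 to 12 h, 4.40 to 7.02 against 18.9 to 24.2 FPKM at 4 h, and meet them at 24 h. At 24 h the M2 → M1 points lie above those of M1 for *Irgm2* (243 to 339 against 144 to 209 FPKM) and *Tgtp2* (303 to 332 against 205 to 221 FPKM). The M2 → M1 cells had also been washed and were 24 h longer in culture.

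The rise itself was compared by an interaction, which sets M2 → M1 against 24 h M2 and naive M1 against 0 h M0. Its arms also differ by the wash and by 24 h in culture, which cannot be told apart from IL-4. At 4 h it called *Tgtp1* (-1.76 ± 0.33, limma adjusted p = 5.1e-05), against 6.77% of all genes called lower, and no other member. At 24 h it called *Irgm2* (1.45 ± 0.48, 0.020), against 10.9% of all genes called higher. *Irgm2* stood at 243, 339 and 334 FPKM in 24 h M2 → M1 libraries and at 209, 144 and 161 FPKM in 24 h M1 libraries, with 2.60, 2.45 and 2.26 FPKM in the M2 cells they came from and 5.66, 3.57 and 3.79 FPKM in 0 h M0. The M2 → M1 group was higher without overlap, though the direct difference at 24 h (0.83 ± 0.34, adjusted p = 0.071) was not called. The 24 h interaction was not called without replicate 2 or without replicate 3, and 3 genes were called in it without replicate 1. Over all genes it had 1828 calls as reported and 2764 without replicate 1.

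The *Tgtp1* result rests on the split of reads between the near copies. At 4 h the sum of *Tgtp1* and *Tgtp2* was 145 ± 34.0 FPKM in M2 → M1 (SD, n = 4) and 152 ± 18.2 FPKM in M1 (n = 3), and *Tgtp1* made up a mean of 3.97% of it in M2 → M1 and 13.8% in M1. Its share was 2.07% in M2 → M1 and 10.5% in M1 at 6 h, 3.63% in M2 → M1 and 14.7% in M1 at 12 h, and 12.0% in M2 → M1 and 18.9% in M1 at 24 h. The ranges of the share did not overlap at 4 h, at 2.83 to 5.86% in M2 → M1 and 13.5 to 14% in M1. Nor did they at 24 h, at 9.71 to 13.2% in M2 → M1 and 16.6 to 21.3% in M1. The sum was then 360 ± 18.0 FPKM in M2 → M1 and 261 ± 4.66 FPKM in M1. *Tgtp2* alone stood at 166, 108, 113 and 172 FPKM in M2 → M1 and at 149, 120 and 124 FPKM in M1, a difference of 0.06 ± 0.36 (limma adjusted p = 0.93). *Gm12185*, an IRG family gene whose transcripts overlap *Tgtp1* in the annotation and share 5.64% of its words, was at 15.2 ± 3.00 FPKM in M2 → M1 and 15.1 ± 2.96 FPKM in M1. All 9 neutrophil markers were lower in M2 → M1 at 4 h, summing to 28.4 to 189 FPKM against 655 to 1366 FPKM in M1. Their part in the *Tgtp1* difference was not tested.

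Other listed IRG genes that were measured were induced as well. Of 10 listed, *Ifi47* not among them, 7 were measured, mostly known by predicted-gene names, and 3 were not analysed here. Every gene of the matrix reached 10 FPKM in at least 1 library, so genes low in M0 are there through other cultures. For such genes a difference between M1 and M0 follows in part from that. At 24 h of M1 all 7 were higher than in 0 h M0 (35.9% of all genes were, and the median difference was 4.01), with *Gm4951* at 144 ± 15.1 FPKM in M1 and 0.0905 ± 0.0581 FPKM in M0 (difference 7.05 ± 0.21) and *Gm12250* (Irgb10) at 160.1 ± 16.8 FPKM in M1 and 2.00 ± 0.868 FPKM in M0 (5.78 ± 0.32). At 72 h after the wash 4 of 7 were higher than in 96 h M0 (10.7% of all genes), with *Gm4951* at 2.05 and *Gm12250* at 1.85. At 4 h in IL-4, 6 of 7 were higher than in base medium (5.10% of all genes), with *Gm12185* at 1.88. In 24 h M2, 2 of 7 were lower than in 24 h M0 (*Gm5431*, -0.89, and *9930111J21Rik2*, -0.54), against 15.1% of all genes, and none was higher, against 18.5%.

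Genes of the IFN-γ pathway above the family also changed in 24 h M1, where 35.9% of all genes were higher. Among receptors, 3 of 4 were higher and *Ifngr1*, the ligand-binding chain of the IFN-γ receptor, was lower, at 39.6 ± 3.69 FPKM in M1 and 83.4 ± 6.59 FPKM in 0 h M0 (-1.06 ± 0.13, with 25.2% of all genes lower). All 3 kinases were higher, *Jak2* by 1.88. Among the transcription factors *Irf1* was higher, at 510.3 ± 18.8 FPKM in M1 and 22.9 ± 5.28 FPKM in M0 (4.44 ± 0.32), as were *Stat2* (4.34) and *Irf9* (1.27), but *Irf8* was not called (0.48, limma adjusted p = 0.19). All 3 inhibitors were higher, with *Socs1*, which blocks the JAK kinases, at 6.43 and *Usp18*, which damps type I interferon signalling, at 6.85.

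The autophagy and ubiquitin genes that help load IRGs onto vacuoles were called less uniformly, with 9 of 13 higher and 1 lower (*Gabarapl1*, -0.78) at 24 h (35.9% of all genes were higher and 25.2% lower) and a median of 0.46, led by *Trim21* (2.88) and *Sqstm1* (1.25). The guanylate-binding proteins, which act on the same vacuoles, were higher in 4 of 4 cases, with *Gbp2* at 2982 ± 279 FPKM in M1 and 7.30 ± 3.22 FPKM in M0.

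At 72 h after the wash, with no test run between lists, *Stat2* stood at 28.2 ± 4.38 FPKM in M1 → M0 and 9.82 ± 1.9 FPKM in 96 h M0 (1.44 ± 0.21), and *Irf9* (0.59) and *Usp18* (2.36) were also higher, while *Irf1* was not called (0.52, limma adjusted p = 0.25). None of the 4 guanylate-binding proteins was called (*Gbp2* 1.05, 0.10), and of the 13 autophagy and ubiquitin genes 1 was higher and 5 were lower, against 7.19% of all genes lower. At 4 h in IL-4 against base medium *Irf1* was higher, at 130 ± 32.1 FPKM in M1 → M2 and 36.8 ± 7.39 FPKM in M1 → M0 (1.79 ± 0.32, 1.1e-05), as were *Jak2* (1.55) and *Socs1*, at 371 ± 70.1 FPKM in M1 → M2 and 7.47 ± 3.64 FPKM in M1 → M0. The 4 guanylate-binding proteins were not called there.

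Over the 48 condition means the 6 genes had similar profiles, which is a description of conditions that share cultures and controls. Pearson's r of mean log2(FPKM + 1) was highest between *Iigp1* and *Tgtp2* (0.994) and between *Igtp* and *Tgtp2* (0.993) and lowest between *Irgm1* and *Tgtp1* (0.887). With predicted genes left out, the genes most like *Iigp1* after *Tgtp2* were *Tap1* (0.990), a peptide transporter of antigen presentation, and *Gbp6* (0.989). *Irgm1* was closest to *Gbp7* (0.983), *Fam26f* and *Gbp5* (both 0.980) and to the IRG gene *Ifi47* (0.978) and *Slfn2* (0.976), and no other member was among its 5. *Tgtp1* was closest to *Trim30b* (0.964) and *BC023105* (0.955). *Irgm2* was closest to *Igtp* (0.987) and *Dtx3l* (0.986).

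Accessible chromatin near the genes was measured at 88 sites, of which 81 passed the filter (over 10 normalized counts in at least 1 library), in 9 libraries of 1730488 to 9354620 counts. A site could pass through M1 or M1 → M0 libraries alone, as the *Iigp1* start site did. For such sites a difference from M0 follows in part from the filter. At 24 h of M1, 49 of the 81 sites were higher than in 0 h M0 and 3 were lower (edgeR, adjusted p below 0.05), against 15.6% of all sites higher and 15.6% lower, and their median log2 difference was 1.17 against -0.11 over all sites. At 72 h after the wash 23 sites were higher than in 0 h M0 and 1 was lower, against 9.81% and 8.96% of all sites. Without replicate 1, 11 were called in that comparison. Between 72 h M1 → M0 and 24 h M1, 2 sites were higher and 44 lower, against 10.9% and 11.1%. The 3 comparisons share libraries. The M0 libraries were taken at 0 h in culture, the M1 libraries at 24 h and the M1 → M0 libraries at 96 h. No M0 library had the same hours as these, so stimulation and time in culture cannot be told apart. By gene, all 7 *Iigp1* sites that passed were higher in M1, 20 of 28 for *Tgtp2*, 10 of 16 for *Igtp*, 10 of 17 for *Irgm2*, 6 of 12 for *Tgtp1* and 6 of 19 for *Irgm1*, and neighbouring genes share sites. The largest fall was at a small site 45.35 kb past the *Irgm2* start, with 0 counts in all 3 M1 libraries and 1.36, 0.631 and 1.9 CPM in M0.

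*Iigp1*, on chromosome 18 from 60376027 to 60392634 on the plus strand (mm10), had 7 sites that passed the filter. The site at its start (chr18:60375678-60376199, the first base as the authors' file gives it, with the counting convention not stated) had 13.0, 14.2 and 14.5 CPM (counts scaled to the total of the library) in 24 h M1, 5.83, 4.94 and 8 in 72 h M1 → M0 and 1.05, 0.631 and 1.49 in 0 h M0. A site 5.86 kb into the gene had 59.3, 58.2 and 42.2 CPM in M1, 29.6, 30.5 and 34.7 in M1 → M0 and 7.64, 8.20 and 9.64 in M0. It spans the annotated start of another *Iigp1* transcript, at 60382683. A site 17.8 kb from the start, just past the end of the gene, had 71.7, 69.4 and 60.1 CPM in M1, 7.29, 3.53 and 5.92 in M1 → M0 and 1.47, 1.47 and 2.17 in M0. The washed cells lay between the M1 and M0 libraries at all 3 sites, without overlap. They were above M0 by 2.47 ± 0.31 at the start site (edgeR adjusted p = 3.7e-09), 1.89 ± 0.15 at the 5.86 kb site (2.3e-17) and 1.71 ± 0.28 at the 17.8 kb site (1.8e-06), where M1 was above M0 by 3.63, 2.70 and 5.30 on the log2 scale.

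On chromosome 11 the start sites of the regulators were already accessible in M0. The *Irgm1* start site (chr11:48871165-48872815) had 81.0, 67.8 and 73.4 CPM in M1, 40.8, 42.5 and 33.9 in M1 → M0 and 30.4, 34.0 and 24.3 in M0. The *Igtp* start site had 26.9, 21.8 and 26.6 in M1, 15.2, 12.8 and 13.3 in M1 → M0 and 14.2, 12.4 and 12.8 in M0, and the *Irgm2* start site averaged 22.5 ± 4.47 in M1, 17.1 ± 1.01 in M1 → M0 and 15.4 ± 1.62 in M0. M1 was above M0 at each, by 1.33 ± 0.13 (*Irgm1*), 0.86 ± 0.15 (*Igtp*) and 0.63 ± 0.15 (*Irgm2*). After the wash the *Irgm1* site was 0.42 ± 0.13 above M0 (edgeR adjusted p = 0.016), a call lost without replicate 1 or without replicate 3, and the *Irgm2* (0.17, 0.43) and *Igtp* (0.06, 0.82) sites were not called.

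Sites between the end of *Igtp* and the main start of *Irgm2* changed more than either start site. They were named for their small p in M1 against M0, so their larger change there follows in part from the choice. The site 4.68 kb before the *Irgm2* start (chr11:58210015-58210573) had 13.3, 14.3 and 9.83 CPM in M1, 6.56, 6.49 and 7.68 in M1 → M0 and 2.72, 1.68 and 1.63 in M0, and was 1.70 ± 0.26 above M0 after the wash (edgeR adjusted p = 7.8e-07). The site 3.86 kb before the start averaged 17.8 ± 1.77 in M1, 4.86 ± 1.16 in M1 → M0 and 2.59 ± 0.316 in M0 (SD, n = 3). It was 0.91 ± 0.26 above M0 after the wash (0.0088), and at both sites the washed libraries lay between the M1 and M0 libraries without overlap. Within *Irgm1*, a site 7.59 kb from the start rose by 3.16 ± 0.19 in M1, and its M1 → M0 libraries (3.67 to 4.74) overlapped the M0 libraries (2.99 to 4.41), a difference of 0.36 ± 0.24 (0.32).

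The start sites of the effectors were nearly closed in M0. The *Tgtp1* start site (chr11:48991859-48992555) had 14.2, 16.0 and 9.83 CPM in M1, 1.94, 2.54 and 2.88 in M1 → M0 and 1.26, 0.631 and 1.9 in M0. The *Tgtp2* start site (chr11:49063825-49064475) had 13.0, 15.3 and 12.7 in M1, 4.25, 4.66 and 5.28 in M1 → M0 and 2.09, 2.31 and 2.45 in M0. M1 was above M0 by 3.39 ± 0.30 and 2.63 ± 0.25. After the wash the *Tgtp2* site was 1.05 ± 0.28 above M0 (edgeR adjusted p = 0.0040), a call lost without replicate 1, while the *Tgtp1* difference was 0.85 ± 0.37 (0.099).

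Both genes have a site just past their 3′ end, 7.67 kb from the *Tgtp1* start and 7.68 kb from the *Tgtp2* start, where the M1 counts were high and the M0 counts near 0. The *Tgtp2* one had 69.5, 59.2 and 50.9 CPM in M1, 7.41, 4.66 and 4.16 in M1 → M0 and 0.733, 1.05 and 3.40 in M0, and M1 was above M0 by 5.13 ± 0.21. The *Tgtp1* one was above M0 by 4.92 ± 0.22 in M1 and by 2.1 ± 0.29 in M1 → M0. All of the 50-base words of the *Tgtp1* site and 65.9% of those of the *Tgtp2* site occur in the other, so reads there could not be told apart by sequence alone. The start sites share 31.7% and 34.1% of their words.

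**Figure D4:**
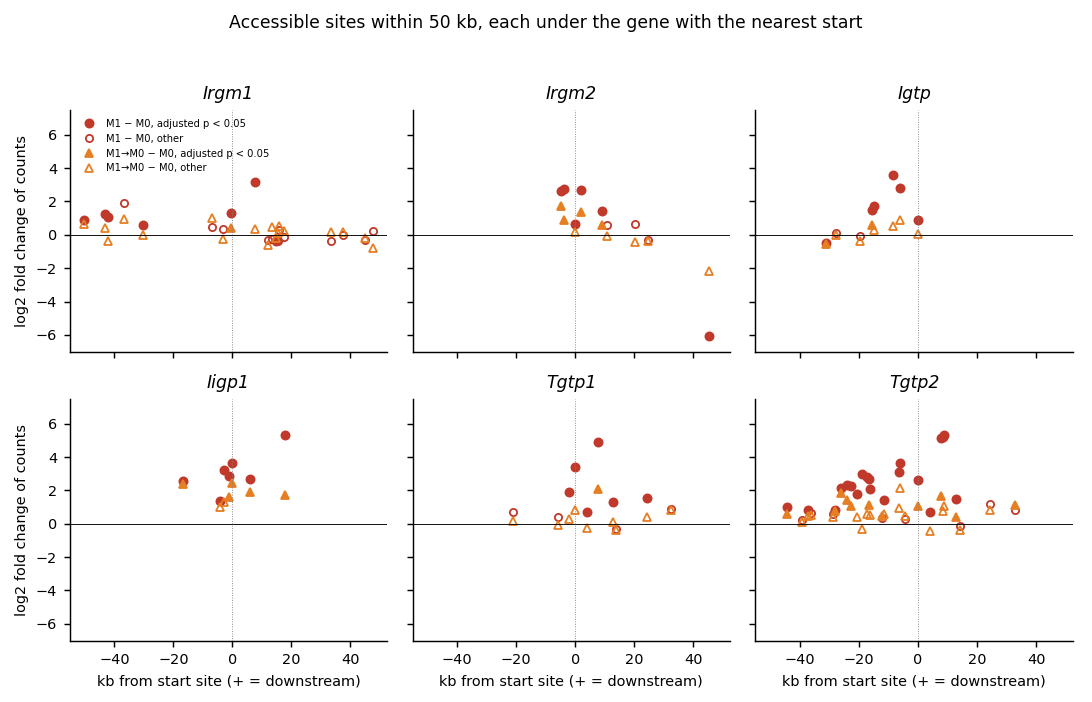
Log2 difference in ATAC-seq counts (M1 → M0 minus M0, and M1 minus M0) against distance from the start (kb) for the sites within 50 kb of each IRG gene, each site drawn under the gene with the nearest start and filled where the adjusted p was below 0.05. The M1 points lie above 0 for most sites near *Iigp1* and *Tgtp2*, up to 5.30 in each, and most M1 → M0 points lie nearer 0. The low point near *Irgm2* is a site with no count in any M1 library. The M0 cells had 0 h in culture, the M1 cells 24 h and the M1 → M0 cells 96 h.

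The elements of the promoters were looked for in the central 300 bases of the sites, on both strands. Of the 49 sites higher in M1, 9 (18.4%) held the ISRE pattern and 14 (28.6%) held the GAS pattern, of the other 32 sites that passed the filter 3 (9.38%) and 2 (6.25%) did, and of all 149953 sites on named chromosomes 5.43% and 8.94% did. The start sites of *Iigp1*, *Irgm2*, *Igtp*, *Tgtp1* and *Tgtp2* each held both. These are among the 49 sites, and all but that of *Iigp1* hold a promoter shown above. The *Irgm1* start site held neither, as its central 300 bases do not reach the ISRE at -30. The motif counts are descriptions, and no test was made of them.

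The single-cell libraries gave the same contrast per cell, with 1 library per condition and therefore no test between conditions. Intervals cover counting error only. *Iigp1* made up 662 CPM in 6 h M1, from counts of unique molecular identifiers (UMIs, each marking 1 captured transcript) (95% exact Poisson interval 645 to 680) and had 0 UMIs in 6 h M0, at least 1330-fold lower at a floor of 3 counts. *Irgm1* made up 310 CPM in 6 h M1 (298 to 321) and 11.6 in 6 h M0 (9.06 to 14.7), *Igtp* 225 in M1 (215 to 235) and 5.31 in M0 (3.63 to 7.5), and *Irgm2* 77.3 in M1 (71.6 to 83.3) and 4.82 in M0 (3.22 to 6.92). *Tgtp2* made up 55.9 CPM in M1 from 490 UMIs and 0.332 in M0 from 2 UMIs, and *Tgtp1* 13.6 in M1 from 119 UMIs, with none in M0. *Iigp1* was thus the highest member at 6 h and *Tgtp1* the lowest, and in bulk at 6 h *Tgtp1* was the lowest as well, but the *Irgm1* mean (801 FPKM) was above that of *Iigp1* (774 FPKM).

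Between 6 h and 24 h of M1 the order changed. *Igtp* became the highest at 570 CPM (552 to 588), a ratio of 24 h to 6 h of 2.53 (2.40 to 2.67). *Tgtp1* rose to 79.0 CPM (72.6 to 85.8), a ratio of 5.81 (4.76 to 7.15), and *Tgtp2* to 136 CPM, a ratio of 2.44 (2.19 to 2.73). *Iigp1* alone was lower at 24 h, at 529 CPM (512 to 546), a ratio of 0.80 (0.77 to 0.83). *Irgm1* had a ratio of 1.38 (1.31 to 1.46), whereas its bulk mean was 602 FPKM at 24 h and 801 FPKM at 6 h.

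Most M1 barcodes held at least 1 member UMI before thinning, and free RNA in these libraries was not estimated. At least 1 UMI of *Iigp1* was found in 66.3% of 3248 barcodes in 6 h M1 (median 2215.5 UMIs per barcode) and in 0 of 2446 barcodes in 6 h M0 (median 1999.5), which allows a share of up to 0.123%. *Igtp* was found in 63.3% of 2842 barcodes in 24 h M1 (median 2056) and 1.21% of 2727 barcodes in 24 h M0 (median 1751), and *Irgm1* in 49.2% in M1 and 3.23% in M0. At least 1 of the 6 genes was found in 86.8% of barcodes in 6 h M1 and 90% in 24 h M1, against 4.03 to 6.42% in the 5 M0 and M2 libraries. At least 3 of the 6 were found in 28.6% at 6 h and 44.7% at 24 h of M1, and all 6 together in 9 and 77 barcodes.

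Thinning every barcode to 500 UMIs, which left out 400 of the 5985 barcodes of 0 h M0 and none elsewhere, kept the contrast. *Iigp1* was then found in 25.6% of barcodes in 6 h M1 and 21% in 24 h M1, *Igtp* in 9.27% and 24.7%, *Irgm1* in 12.1% and 15.4%, *Irgm2* in 3.85% and 9.47%, *Tgtp2* in 2.06% and 5.17%, and *Tgtp1* in 0.523% and 3.10%. No member exceeded 0.931% in any M0 or M2 library. At that depth no member UMI was left in 56.5% of barcodes in 6 h M1 and 43.0% in 24 h M1, against 98.3 to 99.1% in M0 and M2, and a cell with none cannot be told from a cell whose few were not drawn. Any pair of libraries shared 6 to 25 barcode sequences.

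**Figure D5:**
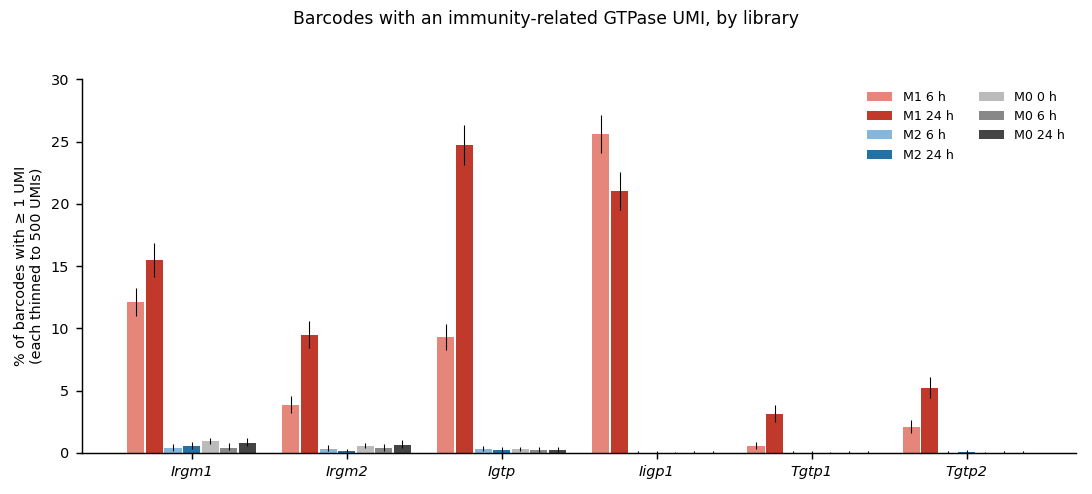
Share of barcodes (%) with at least 1 UMI of each IRG gene after thinning to 500 UMIs per barcode, by library, with 95% exact binomial intervals that cover counting error only. The M1 bars reach 25.6% for *Iigp1* at 6 h and 24.7% for *Igtp* at 24 h, and the M0 and M2 bars stay at or below 0.931%.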

How the data were processed

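Bulk RNA-seq, ATAC-seq and droplet single-cell RNA-seq were analysed from the deposited tables. Bulk values were deposited by the authors as log10 FPKM, made on mm10 with TopHat2 2.0.14 and Cuffnorm 2.2.2 (versions per the submitters' notes), and were turned back into FPKM. Its column numbers, which start at 0, were read as replicates 1 to 4. ATAC counts per merged site and single-cell UMI counts (Cell Ranger) were deposited by the authors as whole counts. SAMtools 1.9, MACS2 2.1.0 and bedtools 2.28.0 are also named in those notes.

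The members and gene lists were chosen with earlier results of these data known. Bulk tests used limma 3.58.1 (R 4.3.3) on log2(FPKM + 1) over 145 libraries and 48 conditions, with a trended prior, two-sided p-values and Benjamini-Hochberg adjustment over 8307 genes. The 24 planned comparisons were followed by 28 chosen after seeing the data. ATAC tests used edgeR 4.0.16 (quasi-likelihood, TMM) on 133850 of 150203 sites, those with over 10 normalized counts in at least 1 library, and DESeq2 1.42.0 as an alternative. Single-cell libraries, 1 per condition, were not tested, and doublets were not called. Same-numbered bulk libraries deviated together (r above 0.1 in every pair) in 18 of 22 comparisons (r 0.105 to 0.774), though the labels do not say what a number stands for, and the fit with the replicate number as a block was run as an alternative. ATAC libraries did not pair. Sites named were, per gene, the one nearest the start, the 3 with the highest mean count and the 3 with the smallest p in M1 against M0, and the text gives those that carry the results. Likeness was ranked over 7813 genes. Tests were tested on simulated data, and Python 3.11.15 and scipy 1.17.1 gave the intervals. Alternatives covered the pseudocount, a filter at 10 FPKM, the libraries fitted, library scaling, the replicate block and each replicate left out. Some genes of the lists, and the counts and sums over lists that hold them, are not reported here.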

Additional observations from a re-analysis of the deposited data

Results flagged for a closer look

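The response to LPS and IFN-γ differed between M2 and unstimulated macrophages for *Tgtp1* at 4 h, by an interaction of -1.76 on the log2(FPKM + 1) scale (limma adjusted p = 5.1e-05), and for *Irgm2* at 24 h, by 1.45 (0.020). Both stood out because the difference between the effects in the 2 kinds of cell passed its own test. The M2 cells had also been washed and were 24 h longer in culture, which cannot be told apart from IL-4. *Tgtp1* shares most of its transcript sequence with *Tgtp2*, whose 4 h interaction was 0.29 ± 0.52 (0.84).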

How the results depend on the processing

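No result changed direction past its threshold under any alternative. Of the counts of members called, 207 alternative values stayed within 1.5 times the reported count, 15 were larger and 21 smaller. With a pseudocount of 10 the number of the 6 genes called was 3 for 1 h M1 against 0 h M0 (6 as reported), 0 for 24 h M2 against 24 h M0 (3), 0 for 72 h M1 → M2 against M1 → M0 (1), 1 for 72 h M1 → M2 against 96 h M2 (5), 0, 2 and 1 for M2 → M1 against M1 at 1, 24 and 72 h (1, 0 and 0). With a mean of at least 10 FPKM asked of a compared group it was 1 for 24 h M2 against 24 h M0, 0 for 72 h M1 → M2 against M1 → M0, 1 for 72 h M1 → M2 against 96 h M2 and 0 for 1 h M2 → M1. With only the compared libraries fitted it was 0 for 1 h M1, 2 for 24 h M2 against 0 h M0, 2 for 72 h M1 → M2 against M1 → M0, 0, 2 and 1 for M2 → M1 at 1, 2 and 24 h, and 3 for the 24 h interaction. The cause was not tested.

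Leaving out a replicate gave 3 to 6 genes for 1 h M1, 0 to 3 for 24 h M2 against 24 h M0, 0 to 2 against 0 h M0, 3 to 5 for 72 h M1 → M0 against 96 h M0, 0 to 5 for M1 → M2 against M1 → M0 at 24 h and at 72 h, 2 to 5 for 72 h M1 → M2 against 96 h M2, 1 to 3, 1 to 2, 1 to 3 and 0 to 3 for M2 → M1 at 1, 2, 4 and 24 h, 0 to 3 for the 24 h interaction, and 11 to 19 sites for 72 h M1 → M0 against M0 (24 as reported).

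With the replicate number as a block no member call was lost and 2 were gained, both *Irgm1*, at 12 h against 6 h of M1 (-0.56, limma adjusted p = 0.0499) and at 12 h of M2 against 0 h M0 (-0.59, 0.045). For 24 h M1 the replicate block called 6 genes.

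Over all genes the count called moved by over 1.5 times in 123 of 468 fits, 86 of them with a replicate left out, 21 with only the compared libraries and 11 with the replicate block (0 to 6.29 times). For 1 h M1, 403 calls became 6 with only the compared libraries and 177 without replicate 1. Equalizing library medians shifted M1 against M0 by -0.13 to -0.21 from 2 h on and moved the share of called genes that were higher to 47.3% at 24 h (58.7% as reported) and to 45.1% for 72 h M1 → M0 against 96 h M0 (59.9%). Over all ATAC sites, M1 against M0 had 41847 calls, 23419 with at least 50 counts asked and 24059 without replicate 1. M1 → M0 against M0 had 25129, 13120 with DESeq2 and 10032 without replicate 1, and M1 → M0 against M1 had 29527, 19139 with DESeq2 and 15697 without replicate 1. In the single-cell libraries 0 UMIs allow a share of up to 0.0501 to 0.123% of barcodes, which the number of barcodes sets.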
